A study of Mus musculus with 15 samples.

Results

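The genes of MHC class II antigen presentation were followed across 15 arrays of mouse mammary epithelial cells. The set held 8 genes, chosen by name: H2-Aa, H2-Ab1, H2-Eb1, H2-DMa, H2-Oa, Cd74, Ciita and Ctss. Every probe set whose single gene symbol in the platform annotation was a member was taken, which gave 12 of 20380 probe sets and 8 of 12393 genes. The rule used no measured value, but the members were chosen with earlier results of these data known. A probe set is a group of short oligonucleotides that together report a transcript.

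MHC class II molecules display peptides from endocytosed proteins to helper T cells. H2-Aa and H2-Ab1 encode the α and β chains of I-A, and H2-Eb1 encodes the β chain of I-E. Newly made chains assemble around the invariant chain Cd74, which the protease cathepsin S (Ctss) trims in the endosome. The heterodimer of which H2-DMa is the α chain then loads peptide, and the H2-O heterodimer, which includes H2-Oa, modulates that step. Ciita, the class II transactivator, is recruited to a conserved set of promoter boxes of these genes. Macrophages, dendritic cells and B cells are the main carriers of class II, and many epithelia can express it after interferon-γ. C57BL/6 mice do not make the I-E α chain, so their H2-Eb1 product has no I-E partner.

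All mice were female C57BL/6 and received intraperitoneal injections. PBS was the control, AzaC is 5-azacytidine, an inhibitor of DNA methylation, and VPA is valproic acid, an inhibitor of histone deacetylases. The stage labels read pregnant (day 21) and virgin (9 week). The label pregnant held 2 PBS, 3 AzaC and 3 VPA arrays, and the label virgin held 2 PBS, 3 AzaC and 2 VPA arrays. Glands were digested and epithelial cells purified, mRNA was isolated on magnetic beads, and biotinylated cRNA was hybridised. The labels give no dose or duration and do not say whether replicates were separate mice, so p-values measure the spread between these arrays, which may be technical.

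The values are log2 signals, with array medians of 7.22 to 7.47, so a difference of 1 is a doubling if the base is 2. The number of arrays, not a read depth, limits the precision. Arrays of the same group correlated at 0.948 to 0.979 and arrays of different groups at 0.922 to 0.978, and no pair was identical. The labelled cell type was checked against its markers. The milk protein transcripts Csn2 (13.69 to 14.03), Wap (13.41 to 14.18) and Lalba (14.05 to 14.35) were near the top of the scale on all 15 arrays, those labelled virgin included. The mean of 10 luminal epithelial markers was 12.31 to 13.23, and transcripts of leukocytes were measured too.

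The promoter boxes of the class II genes can be read in the RefSeq promoter windows of build GRCm38.p6, which held 5 of the 8 members: H2-Aa, H2-Eb1, H2-Oa, H2-DMa and Ctss. H2-Ab1, Cd74 and Ciita had no entry. In the 250 bases before the start of transcription, both strands were searched for the Y box core CTGATTGG and for GCAAC, the core of the X box, followed by 20 to 30 bases and then CTGATTGG. These letters were chosen with the class II promoters in view. The 3 stretches below are shown because they carry that pair, the landing site of the complex that Ciita joins. Capitals mark GCAAC, CTGATTGG and, in H2-Aa, the cyclic AMP response element TGACGTCA between them.
H2-Aa: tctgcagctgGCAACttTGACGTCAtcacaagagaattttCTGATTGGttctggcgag
H2-Eb1: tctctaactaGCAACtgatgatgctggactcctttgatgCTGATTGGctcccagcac
H2-Oa: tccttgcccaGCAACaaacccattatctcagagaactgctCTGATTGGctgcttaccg

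The H2-Aa stretch is chr17:34287857-34287914 on the minus strand, with the boxes 81 to 44 bases before the start. The H2-Eb1 stretch is chr17:34305766-34305822 on the plus strand, with the boxes 91 to 55 bases before the start. The H2-Oa stretch is chr17:34092293-34092350 on the plus strand, with the boxes 76 to 39 bases before the start. The spacer was 25, 24 and 25 bases in H2-Aa, H2-Eb1 and H2-Oa. Of 32536 promoter windows, 20 (0.0615%) held GCAAC, that spacer and CTGATTGG, and 3.8% held CTGATTGG. TGACGTCA was present in 1.56% of windows. H2-DMa held none of these patterns in its windows, which says only that these letters are not there.

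For Ctss, whose promoter lacks the pair of boxes, the match searched for was the interferon-type element, GAAA on either side of any 2 bases, present in 2.98% of windows on either strand. It is printed because Ctss had the largest drug differences of the 8 genes in the label pregnant, and capitals mark the match.
Ctss: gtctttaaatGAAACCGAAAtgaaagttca

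This stretch is chr3:95526755-95526784 on the plus strand, with the match 21 to 12 bases before the start. CpG pairs, the sites of the methylation that AzaC blocks, were counted in the upstream 250 bases of the 5 members with a window. H2-Eb1 had 0, H2-Oa had 1, H2-Aa had 3 and Ctss had 4, and H2-DMa had 27 in 1 window and 0 in another. The median over all windows was 6, with quartiles of 2 and 16, so H2-Aa and Ctss lay within the quartiles and H2-Eb1 and H2-Oa below them. A match is a description of letters, and neither binding nor methylation was measured here.

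A single array shaped the spread of the class II genes. Virgin AzaC replicate 1 had the lowest signal of the 15 arrays for H2-Aa, H2-Ab1, H2-Eb1, H2-DMa, Cd74 and Ctss. The pooled standard deviation within groups was 0.54 for H2-Aa, 0.51 for H2-Ab1, 0.58 for H2-Eb1, 0.56 for Cd74 and 0.72 for Ctss with this array. Without it, those values were 0.22, 0.27, 0.28, 0.28 and 0.31, so the members vary far less between the other replicates. Across all genes the array was less unusual: it was the lowest array for 12.4% of genes, while the other 14 arrays were lowest for 4.77 to 13.9%. It also had the lowest mean of the macrophage markers (7.58, others 7.88 to 9.16), the pan-leukocyte markers (7.56, others 7.93 to 8.78), the luminal markers (12.31, others 12.38 to 13.23) and the MHC class I list (9.70, others 9.72 to 10.84). Its Gapdh 3′ minus 5′ probe difference, a gauge of RNA integrity, was 0.07, within the range of the other arrays. All tests below are given with all 15 arrays, and with this array left out where that changes a call or the direction of a chain, Cd74 or Ctss. That second fit was chosen after the members' values had been seen, so its counts cannot be weighed against the shares of all genes beside them.

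The I-A chains were most abundant with VPA in the label pregnant. There, H2-Aa read 11.46 and 11.17 with PBS, 11.40, 11.73 and 11.94 with AzaC, and 12.05, 12.42 and 12.11 with VPA. In the label virgin it read 11.74 and 11.66 with PBS, 10.39, 12.03 and 12.42 with AzaC, and 11.84 and 11.56 with VPA. The 3 pregnant VPA arrays lay above both pregnant PBS arrays and above the pregnant AzaC arrays, while the virgin AzaC arrays held both the lowest value and, tied with a pregnant VPA array, the highest.

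H2-Ab1, the β chain of I-A, had the same order of injections in the label pregnant. It read 10.71 and 10.45 with PBS, 10.71, 10.85 and 11.36 with AzaC, and 11.38, 11.92 and 11.71 with VPA in the label pregnant. Among the virgin arrays it read 10.64 and 10.74 with PBS, 9.70, 11.10 and 11.54 with AzaC, and 11.08 and 10.71 with VPA. Again the pregnant VPA arrays did not overlap the PBS or the AzaC arrays of that label. The lowest pregnant AzaC array equalled the higher PBS array at 10.71.

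H2-Eb1 read 10.79 and 10.67 with PBS, 10.82, 10.90 and 11.40 with AzaC, and 11.39, 11.95 and 11.77 with VPA in the label pregnant. The virgin arrays read 10.70 and 11.16 with PBS, 9.43, 11.12 and 11.53 with AzaC, and 11.09 and 10.68 with VPA. Here the pregnant AzaC arrays were all above the PBS arrays, by as little as 0.03, and the VPA and AzaC ranges overlapped by 1 array.

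Cd74, the invariant chain, had close group means with AzaC (12.88 ± 0.31, n = 3) and VPA (12.96 ± 0.25, n = 3) in the label pregnant. It read 12.12 and 11.95 with PBS, 12.82, 12.60 and 13.21 with AzaC, and 13.08, 13.13 and 12.67 with VPA. Its virgin values were 12.55 and 12.16 with PBS, 11.02, 12.70 and 13.01 with AzaC, and 12.52 and 11.96 with VPA. The PBS arrays of the label pregnant were below all 6 drug arrays of that label, and their group mean of 12.04 ± 0.12 (SD, n = 2) was the lowest of the 6 groups.

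Ctss, which finishes the cleavage of the invariant chain, had the widest range of the 8 genes, 2.89 on the log2 scale over the 15 arrays. In the label pregnant it read 9.75 and 9.75 with PBS, 10.73, 10.79 and 11.51 with AzaC, and 11.43, 11.60 and 11.11 with VPA. Among the virgin arrays Ctss read 10.70 and 10.09 with PBS, 8.71, 11.12 and 11.12 with AzaC, and 10.15 and 9.74 with VPA. All drug arrays of the label pregnant were above both PBS arrays, whereas the VPA arrays of the label virgin spread around the lower PBS array.

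The peptide editors did not share a pattern. H2-DMa stayed between 7.21 and 7.81 on all arrays, near the middle of each array's signals. In the label pregnant it read 7.61 and 7.22 with PBS, 7.31, 7.49 and 7.28 with AzaC, and 7.53, 7.80 and 7.70 with VPA. The virgin arrays gave 7.57 and 7.50 with PBS, 7.21, 7.63 and 7.80 with AzaC, and 7.81 and 7.34 with VPA. Its drug arrays overlapped the PBS arrays in both labels, and pregnant VPA lay above pregnant AzaC by as little as 0.04.

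H2-Oa was among the dim probe sets, between the 15.1 and 30.8 percentile of its array. In the label pregnant it read 5.20 and 5.31 with PBS, 4.22, 5.33 and 4.32 with AzaC, and 5.14, 5.20 and 5.00 with VPA. Virgin values were 4.75 and 5.11 with PBS, 4.63, 4.56 and 5.61 with AzaC, and 5.26 and 5.83 with VPA. Its standard deviation within groups was 0.43, and without virgin AzaC replicate 1 its 0.44 was the largest of the 8. It did not follow the order of the chains: its highest group was virgin VPA, and pregnant VPA overlapped pregnant PBS.

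Ciita was dim too, between the 30.1 and 43.5 percentile of its array. Its signal was 5.79 and 6.23 with PBS, 6.16, 6.21 and 6.12 with AzaC, and 6.20, 6.07 and 6.19 with VPA in the label pregnant. The virgin values were 6.20 and 6.82 with PBS, 6.20, 5.97 and 6.19 with AzaC, and 6.17 and 6.20 with VPA. Both PBS pairs disagreed more than any drug group, and 13 of the 15 values lay close together between 5.97 and 6.23. No member was listed at 0 on any array.

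**Figure D1:**
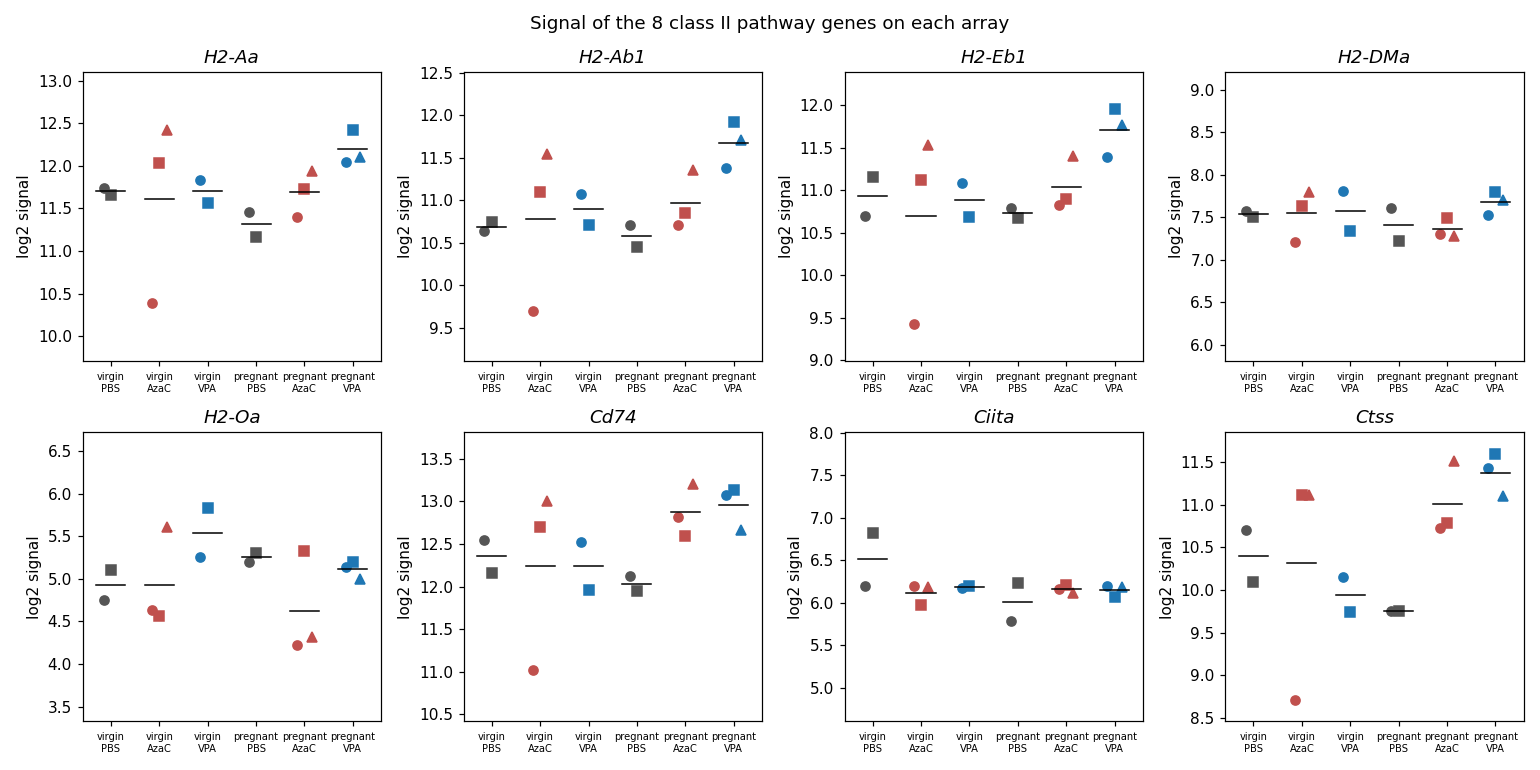
Log2 signal (vertical axis, each panel spanning the same range) of the 8 genes on each of the 15 arrays, by group. Symbols give the replicate number in the labels (circle 1, square 2, triangle 3), colours the injection, and the horizontal line the group mean; pregnant VPA has the highest mean for H2-Aa, H2-Ab1, H2-Eb1, H2-DMa, Cd74 and Ctss, and the low circle in virgin AzaC is replicate 1.

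The largest median difference of the members was that of VPA against PBS in the label pregnant. H2-Aa differed by 0.88 ± 0.46 (SE) on the log2 scale, 1.84-fold, with a 95% interval of -0.12 to 1.88. H2-Ab1 differed by 1.09 ± 0.43 (0.14 to 2.04), 2.13-fold, and H2-Eb1 by 0.97 ± 0.49 (-0.10 to 2.04), 1.96-fold. Cd74 differed by 0.93 ± 0.47 (-0.11 to 1.96), 1.90-fold. The protease Ctss had the largest difference, 1.63 ± 0.60 (0.32 to 2.94), 3.10-fold. The smallest were those of H2-DMa (0.26 ± 0.21), Ciita (0.14 ± 0.20) and H2-Oa (-0.14 ± 0.37).

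With all 15 arrays, 0 of the 8 members passed an adjusted p of 0.05 in this comparison (limma, Benjamini-Hochberg over all genes), where 5.98% of all genes did. Ctss (adjusted p = 0.125) and H2-Ab1 (adjusted p = 0.147) had an unadjusted p under 0.05, 2 members of 8, against 24.9% of all genes. In 5 members, H2-Aa, H2-Ab1, H2-Eb1, Cd74 and Ctss, every VPA array lay above every PBS array, as it did for 25.7% of genes. The median difference of the members was 0.90, and that of all genes 0.06.

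Leaving out virgin AzaC replicate 1, an array of neither group, left these differences as they were and narrowed their intervals. The same 5 members then passed: Ctss (SE 0.28, adjusted p = 0.00699), H2-Ab1 (SE 0.25, adjusted p = 0.0228), H2-Aa (SE 0.21, adjusted p = 0.0286), H2-Eb1 (SE 0.26, adjusted p = 0.0394) and Cd74 (SE 0.25, adjusted p = 0.044). That is 5 of 8 members where 10% of all genes passed, 6.98% of all genes in the higher direction. The array left out was the lowest for these same 5 members, so the shares are not a like comparison. When only the 5 arrays compared were fitted, Ctss alone of the members passed (adjusted p = 0.0391), with 2.94% of all genes. Whether the class II genes are called higher with VPA therefore rests on how the spread between replicates is estimated.

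AzaC against PBS in the label pregnant used the same PBS arrays. Ctss differed by 1.26 ± 0.60 (-0.05 to 2.57), 2.39-fold (adjusted p = 0.208), and Cd74 by 0.84 ± 0.47 (-0.20 to 1.88), 1.79-fold (adjusted p = 0.290). The I-A and I-E chains differed by less, 0.38 ± 0.46 for H2-Aa, 0.39 ± 0.43 for H2-Ab1 and 0.31 ± 0.49 for H2-Eb1. H2-Oa was lower by -0.63 ± 0.37, with 2 of 3 AzaC arrays below both PBS arrays. H2-DMa (-0.05 ± 0.21) and Ciita (0.15 ± 0.20) were close to 0, and both took the other sign without pregnant PBS replicate 1 (0.14 and -0.07).

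In this comparison 0 of 8 members passed with limma, where 7.57% of all genes did, and 0 had an unadjusted p under 0.05, where 26.2% of genes did. H2-Eb1, Cd74 and Ctss, 3 of 8, had every AzaC array above both PBS arrays, against 23.5% of genes. Without virgin AzaC replicate 1, Ctss passed (SE 0.28, adjusted p = 0.0194, 10.6% of all genes) and Cd74 did not (SE 0.25, adjusted p = 0.0578). The median difference of the members was 0.34, and that of all genes 0.04.

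In the label virgin the VPA differences had no common sign. VPA differences from PBS were 0.00 ± 0.50 for H2-Aa (-1.09 to 1.09), 0.21 ± 0.47 for H2-Ab1 (-0.83 to 1.24), -0.04 ± 0.53 for H2-Eb1 (-1.22 to 1.13) and -0.12 ± 0.52 for Cd74 (-1.25 to 1.02). Ctss was -0.45 ± 0.65 (-1.88 to 0.98). H2-Oa had the largest, 0.62 ± 0.41, and was the only member whose VPA arrays both lay above the PBS arrays, against 20.8% of genes. H2-DMa was 0.04 ± 0.23 and Ciita -0.32 ± 0.22. None of the 8 passed (0.00807% of all genes, 1 gene, did), and 0 had an unadjusted p under 0.05, against 6.87% of genes.

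For AzaC in the label virgin, the differences depended on single arrays, most on replicate 1. With 3 AzaC arrays the differences were -0.09 ± 0.46 for H2-Aa, 0.09 ± 0.43 for H2-Ab1, -0.24 ± 0.49 for H2-Eb1, -0.11 ± 0.47 for Cd74 and -0.08 ± 0.60 for Ctss. Without replicate 1 they were 0.53, 0.63, 0.39, 0.50 and 0.72, all with adjusted p between 0.331 and 0.56. Without virgin PBS replicate 1, Cd74 was 0.08 and Ctss 0.23, and H2-Ab1 was -0.07 or -0.29 without AzaC replicate 2 or 3. H2-DMa was 0.01 ± 0.21 and H2-Oa 0.00 ± 0.37, and Ciita, at -0.39 ± 0.20, had the smallest p of the 8 (adjusted p = 0.714). In this comparison 0 of 8 members and 0% of all genes passed with limma, 0 members had an unadjusted p under 0.05 against 6.85% of genes, and no member was free of overlap.

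**Figure D2:**
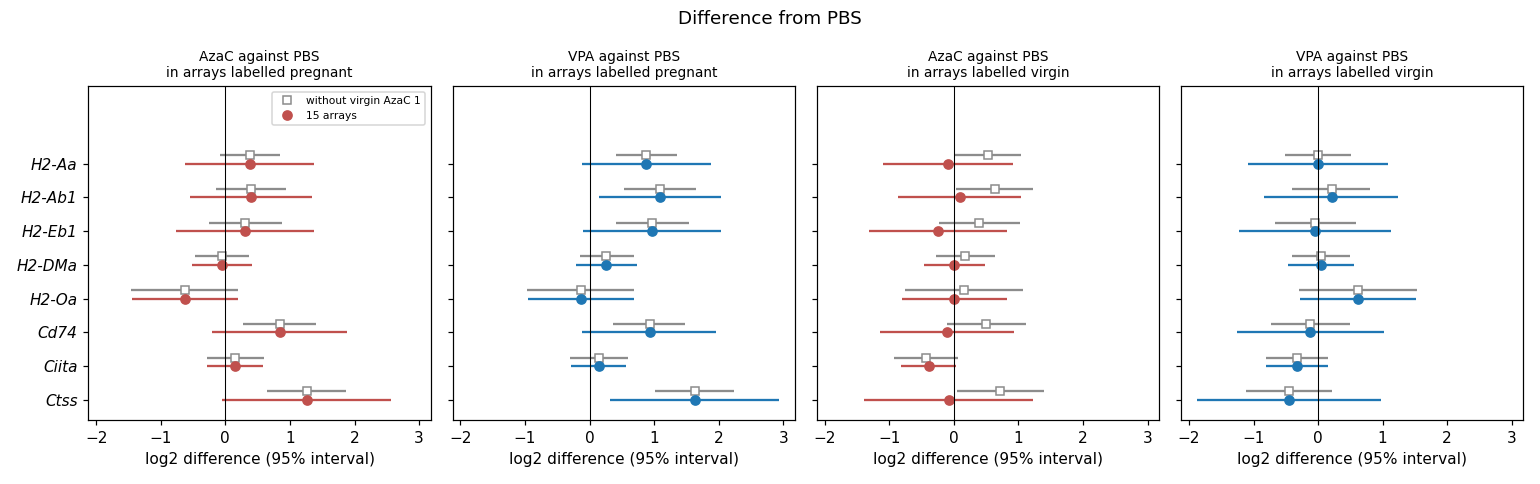
Differences from PBS on the log2 scale (horizontal axis) with 95% intervals for the 8 genes in the 4 drug comparisons. Filled circles are the fit to 15 arrays and open squares the fit without virgin AzaC replicate 1; in the label pregnant the points coincide and the intervals of Ctss, Cd74 and the chains narrow, and in the third panel the points themselves move.

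The 2 drugs were also set against each other. In the label pregnant AzaC minus VPA was -0.50 for H2-Aa, -0.70 for H2-Ab1 (95% interval -1.54 to 0.15), -0.66 for H2-Eb1 (-1.62 to 0.29) and -0.32 for H2-DMa (-0.74 to 0.10). For Cd74 it was -0.08 (-1.01 to 0.85) and for Ctss -0.37 (-1.54 to 0.80), intervals that hold differences of either sign. H2-Aa, H2-Ab1 and H2-DMa had all AzaC arrays below all VPA arrays, 3 of 8 members against 5.54% of genes. With limma 0 members and 0% of all genes passed, and 0 members had an unadjusted p under 0.05 against 3.78% of genes. Among virgin arrays the differences ran from -0.61 for H2-Oa to 0.37 for Ctss. Leaving out virgin AzaC replicate 1 made Ctss 1.17, and Cd74 went from 0.00 to 0.61. The same step turned H2-Aa from -0.09 to 0.53, H2-Ab1 from -0.11 to 0.43, H2-Eb1 from -0.19 to 0.44 and H2-DMa from -0.03 to 0.14. There too 0 members and 0% of genes passed, 0 members were under an unadjusted p of 0.05 (6.56% of genes), and the arrays of each member overlapped.

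Between the stage labels, 7 of 8 members had a negative PBS difference, pregnant minus virgin, where 53.2% of all genes were above 0. It was -0.39 for H2-Aa, -0.11 for H2-Ab1, -0.20 for H2-Eb1, -0.32 for Cd74 and -0.64 ± 0.65 for Ctss. H2-DMa was at -0.12 and H2-Oa at 0.32. Leaving out pregnant PBS replicate 2 turned H2-Ab1 to 0.02 and H2-DMa to 0.08. Without virgin PBS replicate 2, H2-Eb1 was 0.03. H2-Aa, Cd74 and Ctss had both pregnant arrays below both virgin arrays, 3 of 8 members against 13.4% of genes. H2-Oa had the reverse, 1 of 8 against 15%. The H2-Aa set outside the fit overlapped, with pregnant PBS up to 9.75 and virgin PBS down to 9.29. Ciita, at -0.50 ± 0.22, was the 1 member with an unadjusted p under 0.05 (adjusted p = 1), where 4.2% of genes were. With limma 0 of 8 members passed, as 0.00807% of all genes did.

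With VPA the chains, Cd74 and Ctss had the opposite sign. The pregnant arrays were higher by 0.49 for H2-Aa, 0.78 for H2-Ab1, 0.82 for H2-Eb1, 0.72 for Cd74 and 1.44 ± 0.60 for Ctss (0.13 to 2.74, adjusted p = 0.162), with no overlap in these 5 members, against 26.2% of genes. For H2-Aa and H2-Ab1 that held only on the sets used in the fit. The other H2-Aa set differed by 0.51 and the other H2-Ab1 sets by 0.13 and 0.20, and on each of these the labels overlapped. H2-Oa was lower without overlap (-0.43), as 19.8% of genes were. None of 8 members passed while 6.66% of genes did, and Ctss was the 1 member with an unadjusted p under 0.05, against 25.1% of genes. Without virgin AzaC replicate 1, Ctss passed (adjusted p = 0.0143, 10.2% of genes) and H2-Eb1 (adjusted p = 0.0698) and H2-Ab1 (adjusted p = 0.0739) did not.

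With AzaC the stage difference of the chains changed sign with virgin replicate 1. H2-Aa was 0.08, H2-Ab1 0.19, H2-Eb1 0.35, Cd74 0.63 and Ctss 0.69 ± 0.53 with it, and -0.53, -0.35, -0.28, 0.02 and -0.11 without it. No member was free of overlap, 0 of 8 passed with limma where 1.23% of genes did, and 0 had an unadjusted p under 0.05 where 18.4% of genes did.

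The difference between drug effects in the 2 labels was tested directly. For VPA, the effect in the label pregnant exceeded that in the label virgin by 0.88 for H2-Aa, 0.89 for H2-Ab1, 1.02 for H2-Eb1, 1.04 for Cd74 and 2.08 ± 0.88 for Ctss (0.14 to 4.02, adjusted p = 0.237). None of 8 members passed, where 0.315% of all genes did, and Ctss was the 1 with an unadjusted p under 0.05, against 18.9% of genes. Without virgin AzaC replicate 1, Ctss passed (SE 0.41, adjusted p = 0.0339, 2.72% of genes), with adjusted p of 0.15 to 0.203 for the 3 chains and Cd74. For AzaC the effects differed by 0.95 for Cd74 and 1.34 for Ctss, or 0.34 and 0.54 without that array. The chains turned sign with it, from 0.46 to -0.15 for H2-Aa, 0.30 to -0.24 for H2-Ab1 and 0.55 to -0.08 for H2-Eb1. For AzaC 0 members passed, as 0% of genes did, and 0 had an unadjusted p under 0.05 where 12.8% of genes did.

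In the test of any difference among the 6 groups, adjusted p ran from 0.314 for Ctss to 0.791 for H2-DMa. None of 8 members passed, while 6.46% of genes did, and 0 had an unadjusted p under 0.05, while 24.8% of genes did. Without virgin AzaC replicate 1, Ctss passed (adjusted p = 0.0174), with 9.7% of genes.

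The members fell into a tight group and a loose one. Over the 15 arrays the Pearson correlation was 0.95 between H2-Aa and H2-Ab1, 0.97 between H2-Ab1 and H2-Eb1, 0.88 between H2-Aa and Cd74 and 0.97 between Cd74 and Ctss. Spearman correlations for these pairs were 0.93, 0.96, 0.77 and 0.97, and without the 2 arrays farthest from the median of the first gene the Pearson values were 0.89, 0.95, 0.71 and 0.94. H2-DMa followed H2-Aa less closely (0.75). H2-Oa (0.22) and Ciita (-0.08) did not follow it. Both were dim, and the probe sets of Ciita correlated with each other at only 0.28, so these low values say little. The arrays share groups and processing, so these values describe the arrays and carry no test.

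Where a gene had several probe sets, they did not all behave alike. The second H2-Aa set, 1452431_s_at, correlated at 0.85 with 1435290_x_at, which was used in the fit. In the label pregnant it read 9.75 and 8.97 with PBS, 9.50, 10.31 and 10.01 with AzaC, and 10.80, 10.81 and 9.96 with VPA, a VPA difference of 1.16 ± 0.55 (adjusted p = 0.242 over all probe sets). H2-Ab1 was read by 1450648_s_at in the fit, and its other sets 1425477_x_at and 1451721_a_at correlated with it at 0.68 and 0.70, and both at 0.53 without the 2 farthest arrays. Their VPA differences from PBS in the label pregnant were 0.83 ± 0.39 and 0.54 ± 0.41, below the 1.09 of the set used. On 1451721_a_at these groups overlapped, with PBS up to 9.05 and VPA down to 8.71. The second Ciita set, 1421211_a_at, correlated with 1421210_at at 0.28, and at -0.02 without the 2 farthest arrays. Endings _x_at, _s_at and _a_at mark sets that can pick up related sequences or several transcripts, so levels of the H2 genes may share signal with close relatives.

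**Figure D3:**
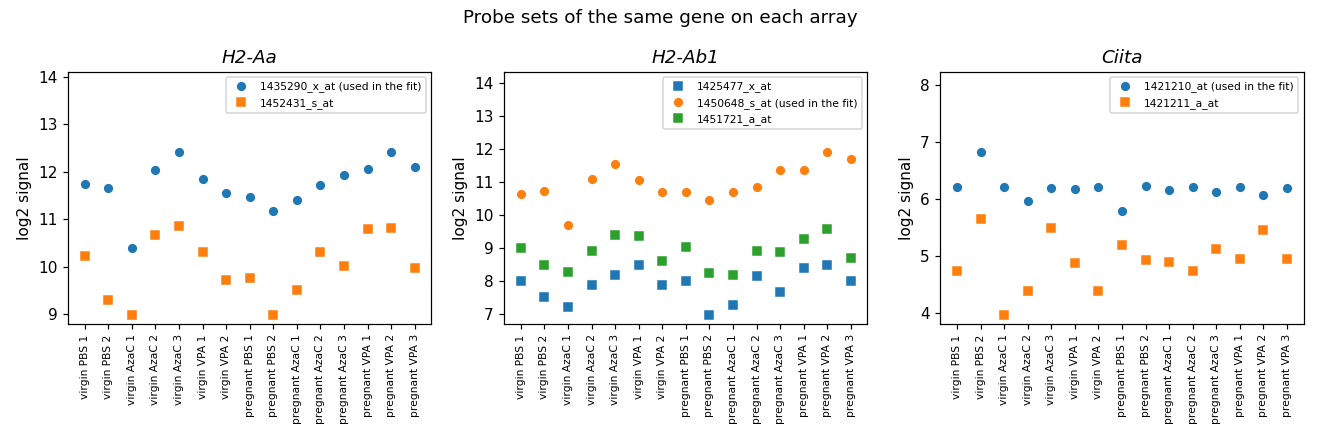
Log2 signal (vertical axis) of every probe set of H2-Aa, H2-Ab1 and Ciita on the 15 arrays (horizontal axis), with circles for the set used in the fit and squares for the others. The sets of H2-Aa follow each other most closely (correlation 0.85), those of H2-Ab1 less (0.68 and 0.70) and those of Ciita least (0.28).

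Other genes of the pathway held a few calls. They came from a list of 30, of which 26 were measured, chosen from textbook knowledge with earlier results of these data known. With VPA in the label pregnant, 3 of 26 were higher and 0 lower past the threshold (5.98% of all genes in either direction), 21 of 26 differences were above 0 (54.4% of all genes were), and the median was 0.47. Lgmn, the asparaginyl endopeptidase that makes early cuts in the invariant chain and antigens, differed by 2.12 ± 0.47 (adjusted p = 0.0290). Ifngr2, a chain of the interferon-γ receptor, differed by 1.43 ± 0.36 (adjusted p = 0.0422). Irf2, an interferon regulatory factor, differed by 1.36 ± 0.32 (adjusted p = 0.0361).

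The values behind these calls separated cleanly by array. Lgmn read 7.38 and 7.16 with PBS, 8.60, 8.96 and 9.56 with AzaC, and 9.42, 9.24 and 9.51 with VPA in the label pregnant. Virgin values of Lgmn were 8.45 and 7.65 with PBS, 7.28, 9.02 and 8.78 with AzaC, and 8.28 and 7.71 with VPA. Ifngr2 read 7.88 and 7.91 with PBS and 8.81, 9.36 and 9.80 with VPA in the label pregnant. Each of the VPA calls was fragile: leaving out an array of either group in turn gave adjusted p of 0.0647 to 0.162 for Lgmn, 0.0616 to 0.234 for Irf2 and 0.0497 to 0.188 for Ifngr2, whose call remained in the fit without pregnant VPA replicate 1 and in no other of these.

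For AzaC in the label pregnant, 1 of 26 was higher (7.57% of all genes passed), Lgmn at 1.77 ± 0.47 (adjusted p = 0.0431, or 0.0576 to 0.197 leaving out an array of either group in turn), and 23 of 26 differences were above 0 against 52.9% of all genes. Without virgin AzaC replicate 1 the counts were 5 of 26 for VPA (10% of all genes) and 4 of 26 for AzaC (10.6%), with the lysosomal protease Ctsl among them (1.60 ± 0.33, adjusted p = 0.0155, and 1.51 ± 0.33, adjusted p = 0.0193). That fit also called Rfxap, a subunit of the complex that binds the X box, for VPA (0.55 ± 0.14, adjusted p = 0.0401). With all arrays Rfxap had the same difference and an adjusted p of 0.057, Rfx5 differed by 0.05 and Rfxank by -0.06. For VPA between the stage labels, 2 of 26 were higher in the label pregnant, where 6.66% of all genes passed: Jak2, a kinase of the interferon-γ receptor (1.19 ± 0.23, adjusted p = 0.0203), and Irf2 (1.38 ± 0.32, adjusted p = 0.0336). Without virgin AzaC replicate 1 that count was 5 (10.2% of all genes), and leaving out an array of either group gave adjusted p of 0.0471 to 0.169 for Jak2 and 0.0563 to 0.171 for Irf2.

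Jak2 (adjusted p = 0.0351) and Irf2 (adjusted p = 0.0487) also passed the test of any difference among the 6 groups, 2 of 26 against 6.46% of all genes, with adjusted p of 0.021 to 0.12 and 0.0219 to 0.11 leaving out each array in turn. The pathway list held 0 calls with limma in the other 8 pairwise or effect comparisons, where 0 to 1.23% of all genes passed. There 0 to 7 of 26 genes had an unadjusted p under 0.05, beside 3.78 to 18.9% of all genes. The 7 belonged to the difference of VPA effects, where the share was 18.9%. Without virgin AzaC replicate 1 that difference held 1 call (Lgmn, 2.18 ± 0.46, adjusted p = 0.0419), with 2.72% of all genes. In those comparisons the genes with the smallest p were Irf8 (0.57 ± 0.17) and Jak1 (0.87 ± 0.37) for AzaC in the label virgin, and Rfx5 (-0.45 ± 0.19) and Cd40 (-0.84 ± 0.39) for VPA there. Between labels they were Creb1 (0.41 ± 0.22) and Lgmn (-0.78 ± 0.51) with PBS, and H2-DMb2 (-0.63 ± 0.22) and Irf2 (0.74 ± 0.29) with AzaC. Between drugs they were Creb1 (-0.35 ± 0.18) and Ifi30 (-0.45 ± 0.24) in the label pregnant and Jak2 (0.75 ± 0.23) and Ifngr1 (0.42 ± 0.17) in the label virgin. For the difference of effects they were Creb1 (-0.64 ± 0.28) and Lgmn (1.46 ± 0.66) for AzaC and Jak2 (1.19 ± 0.34) and Irf2 (1.63 ± 0.48) for VPA.

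MHC class I genes, which present peptides made inside the cell, had 0 calls among 13 measured in each of the 11 comparisons, with or without virgin AzaC replicate 1 (limma). At an unadjusted p under 0.05 there were 2 of 13 for VPA (24.9% of all genes) and 1 of 13 for AzaC (26.2%) in the label pregnant. In the label virgin there were 0 for VPA (6.87%) and for AzaC (6.85%). The other comparisons held 0 or 1, beside 3.78 to 25.1% of all genes. Their median difference from PBS was 0.30 with AzaC and 0.52 with VPA in the label pregnant, and 0.33 and 0.45 in the label virgin, where 13 of 13 differences were above 0 for both drugs (57.6% of all genes for AzaC and 55% for VPA). The class II members had a median of -0.08 for AzaC and -0.02 for VPA in the label virgin, and without virgin AzaC replicate 1 the AzaC medians were 0.45 for class II and 0.67 for class I. The smallest p belonged to Tap1, a subunit of the peptide transporter, for VPA in the label pregnant (0.92 ± 0.40, adjusted p = 0.183), with Psme1 next (0.53 ± 0.23). For AzaC there it was Calr, a chaperone (-0.58 ± 0.23, adjusted p = 0.139), then Tap2 (0.66 ± 0.33). In the label virgin Tap2 (0.57 ± 0.33) and Psmb9 (0.60 ± 0.40) led for AzaC, and Calr (0.45 ± 0.25) and Psmb9 (0.69 ± 0.44) for VPA.

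In the other comparisons Calr was 1 of the 2 class I genes with the smallest p in each but AzaC against VPA in the label pregnant, where these were Psmb10 (-0.54 ± 0.29) and Psmb9 (-0.51 ± 0.36). Between the labels, Calr differed by 0.29 ± 0.25 with PBS, -0.48 ± 0.20 with AzaC and -0.59 ± 0.23 with VPA, beside Tap1 (-0.31 ± 0.44), Psmb10 (-0.41 ± 0.29) and Tap1 (0.49 ± 0.40). For the difference of effects it was -0.76 ± 0.32 for AzaC and -0.88 ± 0.34 for VPA, beside Tap1 at 0.63 ± 0.57 and 0.80 ± 0.60. For AzaC against VPA in the label virgin, Calr (-0.27 ± 0.23) stood beside B2m (0.50 ± 0.59).

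Macrophage, pan-leukocyte and luminal markers mostly moved with the class II genes. As lists, dendritic cell, B cell and T cell markers, several of them dim, did not. In such bulk samples, fewer cells of a type and less RNA per cell cannot be told apart. The mean log2 signal of 12 macrophage markers in the label pregnant was 7.99 to 8.23 with PBS, 8.67 to 8.96 with AzaC and 8.75 to 9.16 with VPA. The virgin ranges were 7.88 to 8.58, 7.58 to 8.76 and 8.06 to 8.21. The log2 of the summed macrophage signal was 12.52 to 12.75 for pregnant PBS, 13.03 to 13.26 for pregnant AzaC, 13.20 to 13.45 for pregnant VPA, 12.57 to 13.16 for virgin PBS, 12.34 to 13.22 for virgin AzaC and 12.64 to 12.82 for virgin VPA. The 3 VPA and 3 AzaC arrays of the label pregnant were thus above its PBS arrays in macrophage signal, as they were in Cd74 and Ctss.

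The macrophage list had 11 of 12 differences above 0 for VPA in the label pregnant (54.4% of all genes), with a median of 1.06. An unadjusted p under 0.05 was found for 7 (24.9% of all genes), and 0 passed the threshold (limma). Without virgin AzaC replicate 1, 5 passed (Lyz2, C1qa, C1qc, Mpeg1 and Aif1), where 10% of all genes did. For AzaC there it also had 11 of 12 (52.9% of all genes), with a median of 0.70. There 4 had an unadjusted p under 0.05 (26.2% of all genes) and 0 passed, or 3 without that array (10.6% of all genes). Between the stage labels with VPA the median was 0.78. Cd163 passed there with all arrays (2.17 ± 0.47, adjusted p = 0.0273), 1 of 12 against 6.66% of all genes. Of 6 fibroblast markers 2 passed as well, Col1a2 and Col3a1 (both 1.51 ± 0.38, adjusted p = 0.0403). With the replicate number as a block these calls were lost. C1qa, a subunit of complement C1q made by macrophages, read 8.93 and 8.65 with PBS, 9.76, 9.28 and 9.80 with AzaC, and 10.02, 10.20 and 10.45 with VPA in the label pregnant. On the virgin arrays C1qa read 9.16 and 9.21 with PBS, 7.49, 9.60 and 9.98 with AzaC, and 9.07 and 8.90 with VPA. As for the I-A chains, the group mean of C1qa was highest with pregnant VPA and lowest with pregnant PBS, and virgin AzaC replicate 1 was the lowest array.

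The other lists varied. The 10 pan-leukocyte markers averaged 7.93 to 8.10 with PBS, 8.09 to 8.30 with AzaC and 8.42 to 8.55 with VPA in the label pregnant. The 10 luminal epithelial markers averaged 12.38 to 12.42, 12.93 to 13.20 and 13.00 to 13.23, so luminal signal was also higher with the drugs. The 7 basal epithelial markers averaged 9.92 to 10.03, 9.90 to 10.03 and 9.95 to 10.40, ranges that overlapped. Cdh1, the epithelial cadherin, was past the threshold for VPA (limma, 1.60 ± 0.42, adjusted p = 0.0463), 1 of 10 luminal markers. That call was fragile, with an adjusted p of 0.0567 when only the arrays compared were fitted. All 6 fibroblast and all 6 endothelial markers also had differences above 0 for VPA in the label pregnant (54.4% of all genes did), with medians of 0.94 and 0.86. Dcn (adjusted p = 0.0499) and Cldn5 (adjusted p = 0.0237) were past the threshold (limma), 1 of 6 in each list against 5.98% of all genes. Leaving out an array of either group gave adjusted p of 0.083 to 0.224 for Dcn and 0.033 to 0.152 for Cldn5. For AzaC in the label pregnant all 6 markers of both lists were above 0 too (52.9% of all genes), with medians of 0.72 and 1.10. Cldn5 passed there (limma, 1.80 ± 0.40, adjusted p = 0.0258), as 7.57% of genes did. With VPA in the label virgin, 0 of 6 fibroblast and 5 of 6 endothelial markers were above 0 (55% of all genes), with medians of -0.74 and 0.10. In the label pregnant the 7 dendritic cell markers were at 5.16 to 5.26 with PBS, 4.72 to 4.92 with AzaC and 4.60 to 5.11 with VPA. The 9 B cell markers were at 6.04 to 6.11, 5.88 to 6.29 and 6.10 to 6.66. Of these, Pax5 was listed at 0 on 12 arrays, among them all arrays of the label pregnant and the virgin VPA arrays. No other B cell marker was at 0 on any array, and their means over all arrays ran from 4.60 (Cr2) to 10.74 (Ighm). Pax5 alone therefore does not tell whether B cells were present. No macrophage, pan-leukocyte, dendritic or luminal marker was at 0 throughout a group. The Gapdh 3′ minus 5′ difference overlapped between the groups, at 0.09 to 0.47 with PBS, -0.12 to 0.85 with AzaC and -0.17 to 0.82 with VPA. The part of these cell types and of RNA quality in the class II differences was not tested.

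Likeness to the class II core was then measured gene by gene. The core was the mean z-score of H2-Aa, H2-Ab1, H2-Eb1 and Cd74 over the 15 arrays, which ran from -2.53 on virgin AzaC replicate 1 to 1.42 on pregnant VPA replicate 2. Of the other members, Ctss correlated with it at 0.92, H2-DMa at 0.67, H2-Oa at 0.11 and Ciita at -0.10. Among 6191 brighter genes outside the set, the most alike were C1qa (0.95), Lyz1 (0.94), Rhog (0.91), Glb1 (0.91), AW112010 (0.90), Itm2c (0.90), Metap2 (0.90), Ifnar2 (0.90), Nudt9 (0.89) and Shisa5 (0.89). Without the 2 farthest arrays these were 0.89 for C1qa, 0.91 for Lyz1, 0.86 for Rhog, 0.89 for Glb1, 0.77 for AW112010, 0.86 for Itm2c, 0.76 for Metap2, 0.84 for Ifnar2, 0.85 for Nudt9 and 0.86 for Shisa5. Lyz1 encodes a lysozyme, Glb1 the lysosomal β-galactosidase and Ifnar2 a chain of the type I interferon receptor.

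By list, the median correlation with the core was 0.73 for the pan-leukocyte markers, 0.71 for the macrophage markers, 0.68 for the luminal markers, 0.67 for class I and 0.42 for the other pathway genes. It was 0.57 for basal, 0.52 for fibroblast and 0.35 for endothelial markers. For dendritic cell, B cell and T cell markers it was -0.10, 0.10 and 0.08, beside 0.07 for all genes. Several markers of these 3 lists were dim, such as Flt3 (mean 2.56), Xcr1 (3.98), Pax5 (0.20) and Cd3d (1.14), so low correlations there say little. Above 0.5 were 1 of 7 dendritic (Itgax, 0.64), 2 of 9 B cell (Cd79b, 0.67, and Blnk, 0.52) and 1 of 8 T cell markers (Cd4, 0.54). A correlation above 0.5 was found for 9 of 12 macrophage markers, 10 of 13 class I genes, 12 of 26 pathway genes and 20.2% of all genes. The macrophage marker Adgre1 (-0.26) went against its list, as did the X box factors Rfx5 (-0.34) and Rfxank (-0.51) against Rfxap (0.60) in theirs. The mean of the macrophage markers correlated with the core at 0.84 (Spearman 0.85), and at 0.76 without the 2 farthest arrays, a description over arrays that share groups.

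**Figure D4:**
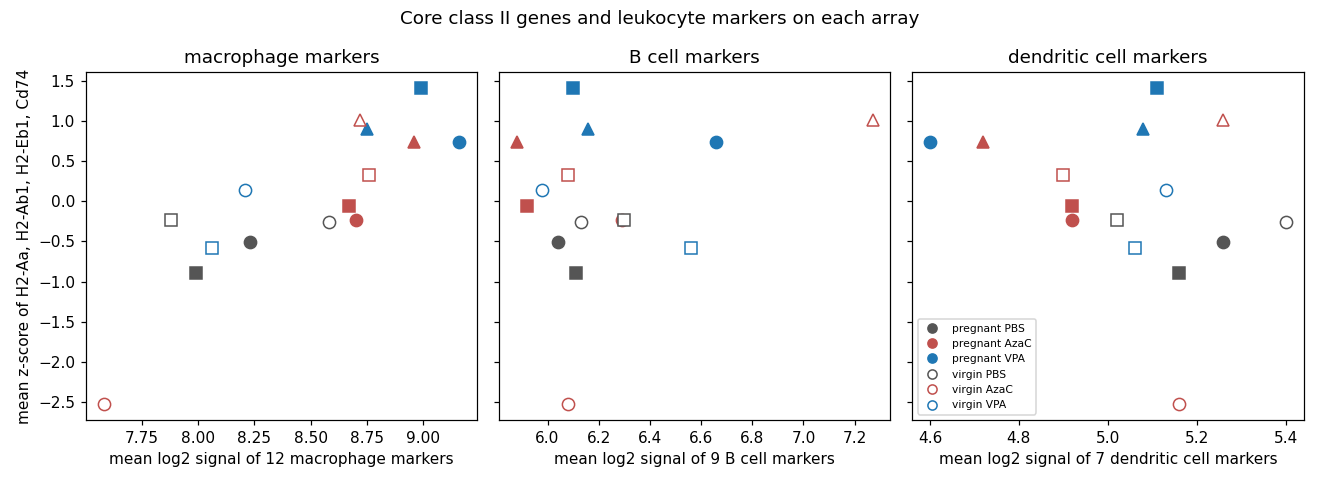
Mean z-score of H2-Aa, H2-Ab1, H2-Eb1 and Cd74 (vertical axis) against the mean log2 signal of macrophage, B cell and dendritic cell markers (horizontal axes) on the 15 arrays. Colours give the injection, filled symbols the label pregnant, open symbols the label virgin, and shapes the replicate number as above. The points rise together in the macrophage panel and not in the other panels, where several markers were dim. Virgin AzaC replicate 1 is the lowest point at -2.53.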

How the data were processed

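The deposited series table holds the authors' processed values for 22690 Affymetrix probe sets. The deposited values, processed by the authors before deposit, run from 0 to 14.48 and were taken as log2 signals. Between 2.29 and 2.59% of each array is at exactly 0. The base, background correction, summary and normalization are not given in the sources used here, and that processing can alter the differences of dim genes such as H2-Oa. Probe sets were named by the platform annotation of 2016: 20380 had a single symbol, 691 several and 1606 none, and 13 control sets with a symbol were left out. A gene was its brightest probe set. The model, limma 3.58.1 (lmFit, eBayes) under R 4.3.3, used the 15 arrays together with a mean for each group, which left 9 residual and 2.31 prior degrees of freedom. Tests were two-sided, with Benjamini-Hochberg adjustment over 12393 genes and a threshold of 0.05. The fit was tested on simulated data. Figures were drawn with matplotlib 3.10.9 in Python 3.11.15.

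All 8 members were named. Of the 2 pathway lists, genes past the threshold were named, up to 6, or else the 2 with the smallest p, and as most alike the 10 genes with the highest correlation. In the class II list 26 of 30 genes were measured and in the class I list 13 of 18. Members and lists were chosen with earlier results of these data known. The alternatives were quantile normalization, dim genes left out, mean or every probe set, eBayes with trend, a floor, the compared arrays only, a replicate block, an RNA quality covariate and each array left out.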

Additional observations from a re-analysis of the deposited data

How the results depend on the processing

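Of 193 counts of members past the threshold under the alternatives, over 12 comparisons, 187 equalled the reported 0. The exceptions were VPA against PBS in the label pregnant on the arrays compared (1, Ctss) and, without virgin AzaC replicate 1, the test among 6 groups (1), AzaC against PBS (1) and VPA against PBS (5) in the label pregnant, pregnant against virgin with VPA (1) and the difference of VPA effects (1). Apart from the test among 6 groups, leaving out that array in those comparisons was added after seeing the data. The counts without an array each therefore ran from 0 to 1 or from 0 to 5 there, and from 0 to 0 in the other comparisons. Of 1520 single member values 1510 kept their side of the threshold and 10 became called. No member was called in the reported fit, so there was no call to lose. Several small member differences changed sign under the alternatives. Of 841 values, from 54 results of other named genes, 139 lost a call and 0 gained one. Most of those results were not called in the reported fit and had no call to lose, so the loss among the calls is a larger share. Where a group of 2 lost an array, the lone array is assumed to vary like the other groups.

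With the replicate number as a block, 0 members passed in each comparison. The deviations of arrays with the same number correlated at -0.457 to 0.517: above 0 in 6 of 7 pairs across the stage labels and in 5 of 13 across injections. Neither comparison with 3 pairs had every pair above 0.1, so the numbers were not taken to pair the arrays. Under the block Lgmn, Irf2 and Ifngr2 were no longer called for VPA in the label pregnant (adjusted p = 0.0687, 0.0551 and 0.0846), nor Lgmn (0.0917) and Cldn5 (0.0583) for AzaC. Cdh1 (0.081), Dcn (0.104) and Cldn5 (0.0551) for VPA there, and Jak2 (0.0515) and Irf2 (0.0517) for pregnant against virgin with VPA, also lost their call, as did Irf2 (0.0856) and Jak2 (0.114) in the test among 6 groups.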
